A study of Mus musculus with 6 samples.

Results

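PINK1 and the receptors of mitophagy, the selective removal of mitochondria by autophagy, were examined here as mRNA levels. The genes were Pink1, Bnip3, Bnip3l, Fundc1, Phb2, Sqstm1, Tax1bp1, Optn and Calcoco2, taken by gene name as 9 of the 54532 rows of the deposited expression table, in all 6 libraries. Libraries for RNA-seq were made from peritoneal macrophages of wild-type (WT) male C57BL/6J mice aged 6–8 weeks, and every culture came from mice injected with thioglycolate, an irritant that draws macrophages into the peritoneal cavity. Control cells were untreated. Model cells received LPS, a bacterial cell wall component, at 500 ng/mL for 5.5 h and then ATP at 2 mM for 0.5 h, a sequence that activates the NLRP3 inflammasome. MUS cells were given LPS and ATP in the same way, and muscone, a fragrant ketone of musk, was added at 50 μM 0.5 h before ATP. No group received muscone without LPS and ATP. Each group had 2 libraries, and by the labels replicates 1 were batch 1 and replicates 2 were batch 2. The labels do not say whether replicates came from separate mice, so p-values measure the spread between these samples, which may be technical.

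PINK1 is a kinase that healthy mitochondria import and destroy. On damaged mitochondria it stays on the outer membrane and phosphorylates ubiquitin, so that the organelle is coated with ubiquitin chains. The adaptors p62 (Sqstm1), optineurin (Optn), NDP52 (Calcoco2) and TAX1BP1 bind such chains and LC3 proteins of the growing autophagosome. A second route needs no ubiquitin, because BNIP3, NIX (Bnip3l) and FUNDC1 sit in the outer membrane and bind LC3 themselves, and prohibitin 2 (Phb2) does so from the inner membrane once the outer membrane has ruptured. In macrophages, mitophagy limits the mitochondrial signals that feed the NLRP3 inflammasome.

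Promoter sequences are shown for 3 genes whose mRNA differed between MUS and Control in the test given below, Pink1 and Bnip3, which were lower, and Tax1bp1, which was higher. Each is the 250 bases before the RefSeq transcription start, on mouse build GRCm38.p6, 5′ to 3′ on the strand of the gene. They lie at chr4:138326297-138326546 (minus strand) for Pink1, chr7:138909507-138909756 (minus strand) for Bnip3 and chr6:52713479-52713728 (plus strand) for Tax1bp1. Capitals mark matches, on either strand, to the short motifs described after them.
Pink1: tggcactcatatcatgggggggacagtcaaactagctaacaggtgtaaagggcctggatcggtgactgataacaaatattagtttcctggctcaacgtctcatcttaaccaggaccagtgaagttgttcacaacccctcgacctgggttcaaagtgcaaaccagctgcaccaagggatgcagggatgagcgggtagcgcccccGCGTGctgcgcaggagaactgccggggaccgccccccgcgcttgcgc
Bnip3: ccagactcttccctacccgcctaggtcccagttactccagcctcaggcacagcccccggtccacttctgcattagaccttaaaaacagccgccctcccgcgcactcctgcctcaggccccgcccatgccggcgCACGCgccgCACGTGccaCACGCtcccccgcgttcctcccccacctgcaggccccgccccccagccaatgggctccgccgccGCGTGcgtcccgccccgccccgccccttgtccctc
Tax1bp1: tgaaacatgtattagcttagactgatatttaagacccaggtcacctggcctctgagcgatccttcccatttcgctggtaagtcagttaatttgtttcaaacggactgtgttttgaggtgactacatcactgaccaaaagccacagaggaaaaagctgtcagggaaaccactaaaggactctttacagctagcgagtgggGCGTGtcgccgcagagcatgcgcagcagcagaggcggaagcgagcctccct
RefSeq promoters were at hand for 7 of the 9 genes, all but Bnip3l and Calcoco2. Both strands were searched for ACGTG and GCGTG (forms of the hypoxia response element core), CACGTG (the E-box of MiT/TFE factors, which contains ACGTG on both strands), TGACNNNGC (the antioxidant response element core), GTAAACA (the forkhead motif) and the NF-κB consensus. The Bnip3 promoter held CACGTG once, which 6.02% of 32851 RefSeq promoter windows of this length also hold, and GCGTG 3 times, which 28.2% hold at least once. The Pink1 and Tax1bp1 promoters shown each held 1 GCGTG and none of the other motifs. Only the first promoter listed for a gene was searched, and Tax1bp1 has 2 in RefSeq. Of the promoters not shown, that of Optn held 2 GCGTG, that of Phb2 held 1 ACGTG (16.6% of windows), and those of Fundc1 and Sqstm1 each held 1 match to the NF-κB consensus (7.25% of windows). A match in these letters is a description and not evidence that a factor binds there.

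The table gives FPKM, fragments per kilobase of transcript, scaled per library to a common sequencing total. Fragments on genes, recovered from FPKM and gene length, ranged from 15526321 to 17135442 per library, which leaves little difference in depth. The total to which the deposited FPKM were scaled was 1.34 to 1.45 times these fragments in Control and 0.909 to 0.998 times in Model and MUS, so directions against Control were also checked with other scalings. Model replicate 1 stood apart with 24906 genes above 0, against 17406 to 19200 in the other libraries. All 8 macrophage markers had a mean of at least 1 FPKM, whereas 0 of 6 T and innate lymphocyte, 0 of 5 B cell, 0 of 5 mast cell and 0 of 4 mesothelial markers did. Of the 6 neutrophil markers only S100a8 reached that level and Ly6g and S100a9 were listed at 0; their sum was 13.7–30.9 FPKM in Control, 57.7–112 in Model and 50.8–64.6 in MUS. Of the 4 eosinophil markers Siglecf reached it and Prg2 and Epx were listed at 0, and their sum was 2.78–4.17 FPKM in Control, 1.42–1.95 in Model and 1.60–1.63 in MUS. Any part of such cells in the results was not tested, and in bulk RNA fewer cells of a type and less RNA per cell cannot be told apart.

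limma was fitted to log2(FPKM + 1), and 9794 genes averaging at least 1 FPKM were tested. A gene was called changed when its p, adjusted by the Benjamini-Hochberg method, was 0.05 or less and its log2 fold change was above 1 or below -1. Fold changes on this scale are smaller than ratios of FPKM for low genes. Of the 9 genes, 8 could be tested. In Model vs. Control, 2 of the 8 were called, both lower (Pink1 and Bnip3l), beside 15.1% of all genes tested (5.56% lower and 9.50% higher). In MUS vs. Model, 0 of 8 were called, as were 0% of all genes; at an unadjusted p under 0.05 there was 1 of 8 (Pink1), beside 8.42% of all genes, and voom on recovered fragments also called 0. In MUS vs. Control, 4 of 8 were called, with Pink1, Bnip3 and Bnip3l lower and Tax1bp1 higher, beside 20.2% of all genes (8.91% lower and 11.3% higher). The median log2 fold change of the 8 genes was 0.02, -0.19 and -0.29 in the 3 comparisons, against 0.04, 0.01 and 0.04 for all genes. Libraries of the 2 groups did not overlap for 62.5%, 62.5% and 75% of the 8 genes, beside 61.1%, 42.1% and 73.3% of all genes tested. In MUS vs. Model the gap was slight for Sqstm1, at 202.559 FPKM in MUS replicate 2 against 202.741 in Model replicate 2. For Bnip3 it was 1.44 against 1.51 FPKM in the same libraries, from 53 fragments each. The comparisons share libraries, so they are not independent of each other. With every gene above 0 tested, 0 of the 8 were called in Model vs. Control and 1 (Pink1) in MUS vs. Control, and with only the 2 groups fitted 0 were called in Model vs. Control. Without Model replicate 1, the library that stood apart, the counts of called genes were 0, 0 and 4.

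**Figure D1:**
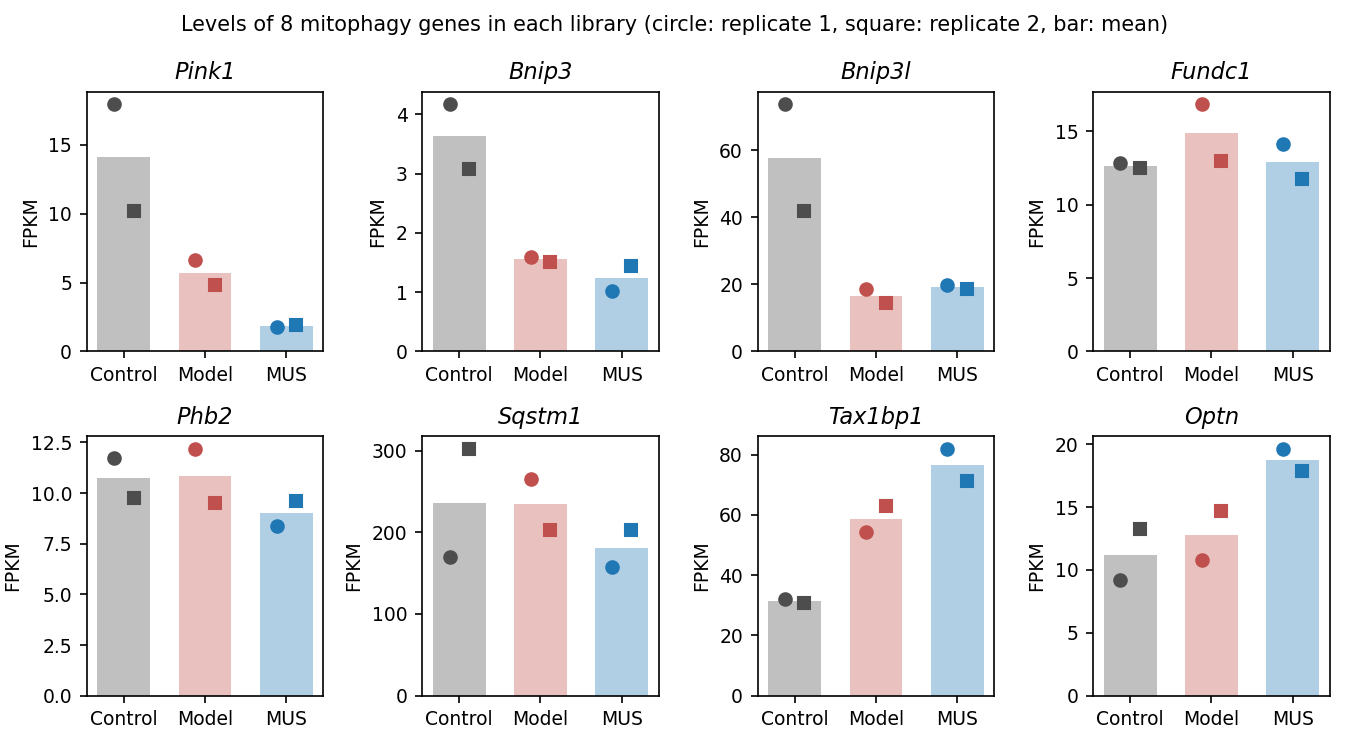
FPKM of the 8 tested genes in each library, with linear axes from 0; circles are replicate 1, squares replicate 2 and bars group means (n = 2). Pink1 steps down from Control to Model to MUS (means 14.1, 5.72 and 1.85 FPKM), Bnip3l is lower in both stimulated groups, and Tax1bp1 is higher in both.

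Pink1 encodes the kinase that starts the ubiquitin route. Pink1 (ENSMUSG00000028756, GRCm38 chromosome 4, 138313409 to 138326307, minus strand) held 17.9 and 10.2 FPKM in the Control libraries, 6.63 and 4.81 in Model, with 1.81 and 1.89 in MUS. No library of one group overlapped another group, and the MUS libraries were the lowest. The group means were 14.1 ± 5.45, 5.72 ± 1.29 and 1.85 ± 0.058 FPKM (SD, n = 2 each). These are 2.46-fold lower in Model than in Control, 3.09-fold lower in MUS than in Model and 7.62-fold lower in MUS than in Control. The lowest values rested on 73 and 82 fragments in MUS, whose 95% Poisson intervals of 57.2 to 91.8 and 65.2 to 102 cover counting error only, against 1096 and 625 fragments in Control. Pink1 fell by 1.13 on the log2 scale in Model vs. Control (95% interval -1.83 to -0.43, limma adjusted p = 0.0422) and fell by 2.36 in MUS vs. Control (interval -3.06 to -1.65, limma adjusted p = 0.0037). In MUS vs. Model its log2 fold change was -1.22 (interval -1.93 to -0.52, limma adjusted p = 0.378), which did not pass the threshold. The study had singled out Pink1 on these same libraries, so this order of the groups is not independent evidence. Its test, DESeq2 at the same thresholds, listed Pink1 as changed in both Model vs. Control and MUS vs. Model. By Western blot the paper reported more PINK1 protein with muscone than with LPS and ATP alone, opposite to the mRNA here. Protein was not measured in these libraries.

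The Pink1 call in Model vs. Control was close to the threshold. It was lost without a filter on low values (limma adjusted p = 0.177), with only the 2 groups fitted (0.108), without a mean-variance trend (0.0504), with a GC correction with or without the replicate block (log2 fold change -0.83) and when any single library other than Control replicate 2 was left out, with log2 fold changes of -0.75 without Control replicate 1, -1.33 without Model replicate 1 and -0.93 without Model replicate 2, and an adjusted p of 0.101 without MUS replicate 1 and 0.1002 without MUS replicate 2. In MUS vs. Control the call was lost only without MUS replicate 1, among 19 alternatives (log2 fold change -2.34, limma adjusted p = 0.0540). In MUS vs. Model, Pink1 was called under none of the alternatives, with log2 fold changes from -1.60 to -0.92. Relative to the median of all genes, the fold change in Model vs. Control stayed between -1.31 and -1.17 under the 5 other scalings and the deposited one.

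BNIP3 and NIX are related outer membrane receptors, known for mitophagy in low oxygen and in maturing red blood cells. Bnip3l (ENSMUSG00000022051, chromosome 14, 66985239 to 67008877, minus strand) was the more abundant, with 73.6 and 41.7 FPKM in Control, 18.6 and 14.4 in Model, with 19.8 and 18.5 in MUS. Both Control libraries were above every stimulated library, while Model and MUS overlapped. The mean was 3.50-fold lower in Model and 3.02-fold lower in MUS than in Control. Bnip3l fell by 1.70 on the log2 scale in Model vs. Control (interval -2.49 to -0.91, limma adjusted p = 0.0174) and fell by 1.49 in MUS vs. Control (limma adjusted p = 0.0208). The difference in MUS vs. Model was 0.21, with an interval of -0.58 to 1.00 (limma adjusted p = 0.911). The call in Model vs. Control was kept without Control replicate 2 and lost when any other single library was left out (adjusted p of 0.0513 to 0.0627, log2 fold change -1.30 without Control replicate 1), and that in MUS vs. Control was lost without Control replicate 1 (-1.09), MUS replicate 1 (-1.54) or MUS replicate 2 (-1.44). Of the 50-base stretches of Bnip3l transcripts, 20.8% also occur in the pseudogene Bnip3l-ps, so its level is uncertain to that extent.

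Bnip3 (ENSMUSG00000078566, chromosome 7, 138890836 to 138909519, minus strand) held 4.17 and 3.09 FPKM in Control, 1.60 and 1.51 in Model, with 1.02 and 1.44 in MUS. These are the lowest levels among the 8 tested genes in each group, from 35 to 216 fragments, and the 3 groups did not overlap. The gap between Model and MUS lay within counting error. Model replicate 2 and MUS replicate 2 held 53 fragments each, with Poisson intervals of 1.13 to 1.98 and 1.08 to 1.88 FPKM. Bnip3 fell by 1.05 on the log2 scale in MUS vs. Control (limma adjusted p = 0.0189). In Model vs. Control its mean FPKM was 2.34-fold lower, and the pseudocount of 1 makes the log2 fold change smaller at such low levels. That log2 fold change, -0.85, had a limma adjusted p of 0.0458 and missed the fold threshold. With a pseudocount of 0.1 Bnip3 was not called in Model vs. Control either. Bnip3 was called under 3 scalings that shift the median of all genes. These were rescaling to genes outside the mitochondrial genome and the 20 highest (-1.31), fragment totals (-1.28) and voom (-1.74), which adds no pseudocount to FPKM. Without Control replicate 2 the log2 fold change was -1.02. MUS vs. Model differed by -0.20 (interval -0.74 to 0.34, limma adjusted p = 0.873). The call in MUS vs. Control was lost with quantile normalization (-0.998) and without Control replicate 1 (-0.88), MUS replicate 1 (-0.91) or MUS replicate 2 (-1.18). Other genes share 16.5% of the 50-base stretches of Bnip3, mostly the pseudogene Gm16439 (13.5%), and the library kit is not stated to keep strand, so reads from the antisense gene that overlaps Bnip3 cannot be told apart.

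Fundc1 encodes an outer membrane receptor of hypoxic mitophagy. Fundc1 (ENSMUSG00000025040, chromosome X, 17556564 to 17572325, minus strand) held 12.8 and 12.5 FPKM in Control, 16.8 and 12.9 in Model, with 14.1 and 11.7 in MUS. Control lay just below Model, and MUS overlapped both. It differed on the log2 scale by 0.21 in Model vs. Control (interval -0.37 to 0.79), -0.18 in MUS vs. Model (interval -0.77 to 0.40) and 0.03 in MUS vs. Control, none of them called, and the sign against Control turned under other scalings (-0.38 in Model vs. Control and -0.49 in MUS vs. Control when rescaled to genes outside the mitochondrial genome and the 20 highest).

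Prohibitin 2 is the inner membrane receptor. Phb2 (ENSMUSG00000004264, chromosome 6, 124712336 to 124716950, plus strand) held 11.8 and 9.77 FPKM in Control, 12.2 and 9.50 in Model, with 8.38 and 9.62 in MUS. Control and Model overlapped, and MUS lay below Control. The log2 fold changes were 0.01 in Model vs. Control (-0.58 when rescaled as for Fundc1), -0.24 in MUS vs. Model (interval -0.80 to 0.33) and -0.23 in MUS vs. Control (0.084 with a GC correction), and none was called.

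Among the ubiquitin-binding adaptors, Tax1bp1 was called in MUS vs. Control. TAX1BP1 also restrains NF-κB signalling together with the ubiquitin-editing enzyme A20. Tax1bp1 (ENSMUSG00000004535, chromosome 6, 52713729 to 52766780, plus strand) held 32.1 and 30.9 FPKM in Control, 54.2 and 62.9 in Model, with 82.0 and 71.1 in MUS. The 3 groups did not overlap, and the mean was 1.86 times the Control mean in Model and 2.43 times in MUS. Tax1bp1 rose by 1.25 on the log2 scale in MUS vs. Control (interval 0.61 to 1.89, limma adjusted p = 0.0187). It was higher in Model than in Control by 0.87 (limma adjusted p = 0.0706) and in MUS than in Model by 0.38 (interval -0.26 to 1.02, limma adjusted p = 0.759), neither of which passed. The call in MUS vs. Control was lost under 4 scalings (quantile 0.67, rescaled 0.72, fragment totals 0.73 and voom 0.74), with a GC correction (0.85), and without MUS replicate 1 (1.15) or MUS replicate 2 (1.35); the direction held under all 19 alternatives.

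Optineurin is the adaptor that TBK1 phosphorylates. Optn (ENSMUSG00000026672, chromosome 2, 5020642 to 5064051, minus strand) held 9.17 and 13.2 FPKM in Control, 10.8 and 14.7 in Model, with 19.7 and 17.9 in MUS. Both MUS libraries lay above the other 4, while Control and Model overlapped. The log2 fold change was 0.54 in MUS vs. Model (interval -0.12 to 1.19, limma adjusted p = 0.679), 0.72 in MUS vs. Control (limma adjusted p = 0.102) and 0.18 in Model vs. Control, where the sign turned under other scalings (-0.41 when rescaled); none was called. An antisense gene, 4930551O13Rik, overlaps Optn.

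Sqstm1 encodes p62, which is also a target of the antioxidant factor NRF2. It had the highest FPKM of the genes in every library. Sqstm1 (ENSMUSG00000015837, chromosome 11, 50199366 to 50210827, minus strand) held 170 and 302 FPKM in Control, 265 and 203 in Model, with 158 and 203 in MUS. The Control libraries lay farther apart than those of either other group and overlapped both. It differed on the log2 scale by 0.03 in Model vs. Control (interval -0.91 to 0.98; -0.997 with quantile normalization), -0.37 in MUS vs. Model (interval -1.32 to 0.57) and -0.34 in MUS vs. Control (0.073 without Control replicate 2). The difference in MUS vs. Control was called only with quantile normalization (-1.202, limma adjusted p = 0.0479).

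Calcoco2 (ENSMUSG00000006056, chromosome 11, 96099326 to 96111964, minus strand), the gene of NDP52, was listed at 0 in all 6 libraries, while a count of 0 allows up to 3 fragments, or 0.0809 to 0.131 FPKM. S100a9 was also listed at 0 throughout while S100a8 held 13.5 to 110 FPKM. Why Calcoco2 and S100a9 were listed at 0 was not tested, so a 0 here is not taken as absence of the mRNA.

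**Figure D2:**
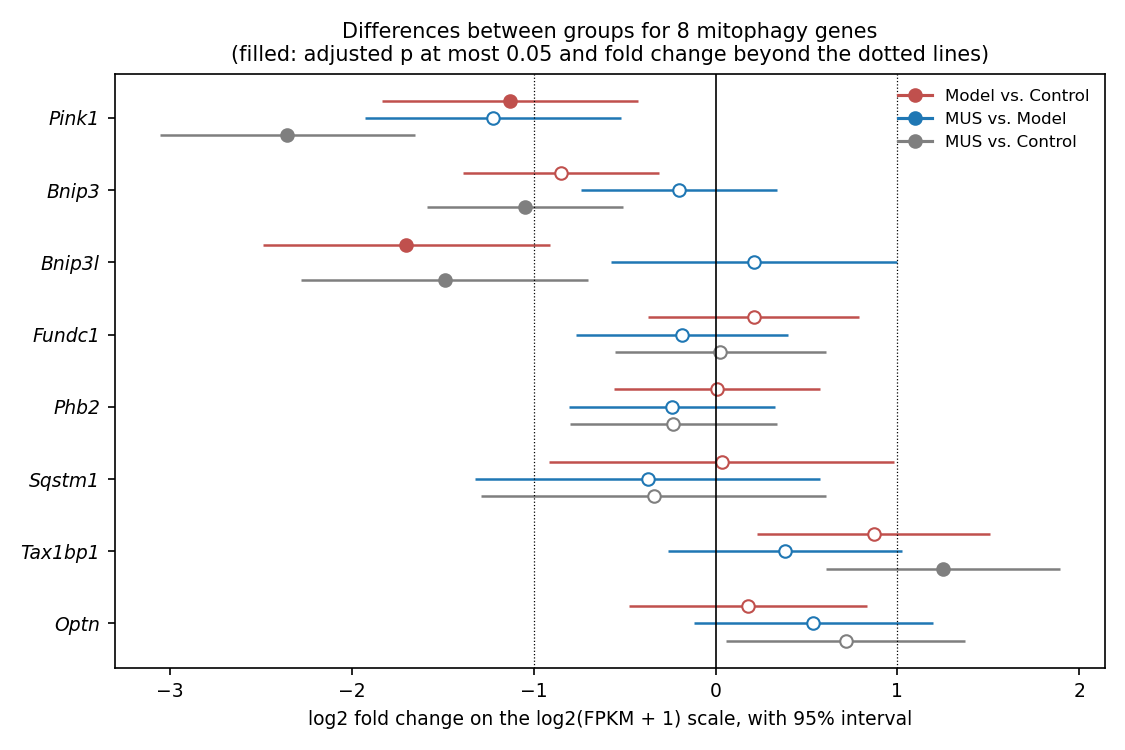
Log2 fold change of the 8 tested genes on the log2(FPKM + 1) scale in Model vs. Control, MUS vs. Model and MUS vs. Control, with 95% intervals from limma; filled points passed both thresholds and dotted lines mark an absolute log2 fold change of 1. Pink1 is the gene farthest below 0 in MUS vs. Control (-2.36), Bnip3l is near 0 in MUS vs. Model (0.21), and no point of MUS vs. Model is filled.

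FPKM is per length, so the levels of the genes can be ranked within a group, as far as the gene length used fits the transcripts made. That length was 9991 bases for Tax1bp1 and 3859 for Bnip3l. In Control the order of means was Sqstm1, Bnip3l, Tax1bp1, then Pink1, Fundc1, Optn and Phb2, and last Bnip3. The 4 genes from Pink1 to Phb2 could not be ordered, since the libraries of each overlapped those of its neighbour in rank. In Model, Tax1bp1 stood above Bnip3l, and Pink1 lay below the overlapping group of Bnip3l, Fundc1, Optn and Phb2 and above Bnip3. In MUS the order was Sqstm1, Tax1bp1, Bnip3l and Optn (overlapping), Fundc1, Phb2, Pink1 and Bnip3. In FPKM, Bnip3l thus moved from above Tax1bp1 in both Control libraries to below it in all 4 stimulated libraries. In fragments, before division by length, Tax1bp1 was already above Bnip3l in Control (7334 and 7067 against 6494 and 3686). Pink1, one of the 4 genes that could not be ordered in Control, was next to last in Model and MUS.

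Ratios of FPKM within a library do not depend on how the library was scaled, apart from counting error. The pairs were picked by hand and not by a rule. Tax1bp1 over Bnip3l and Optn over Pink1 each set a gene higher in MUS than in Control over one that was lower. A lack of overlap in such ratios follows from that choice and is a description only. Tax1bp1 over Bnip3l was 0.436 and 0.741 in Control, 2.92 and 4.36 in Model, with 4.15 and 3.85 in MUS. Control did not overlap the stimulated groups, and Model spanned MUS. Optn over Pink1 was 0.511 and 1.30 in Control, 1.63 and 3.05 in Model, with 10.9 and 9.48 in MUS, with no overlap between groups. Pink1 over Phb2 was 1.53 and 1.05 in Control, 0.543 and 0.506 in Model, with 0.216 and 0.196 in MUS, also without overlap. Between the related receptors, Bnip3l over Bnip3 was 17.6 and 13.5 in Control, 11.6 and 9.55 in Model, with 19.3 and 12.8 in MUS, so that Control and MUS overlapped. Bnip3l over Fundc1 was 5.75 and 3.35 in Control, 1.10 and 1.11 in Model, with 1.40 and 1.58 in MUS. For such a ratio, an exact permutation test over 2 and 2 libraries cannot give a two-sided p under 0.333, and none is given.

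**Figure D3:**
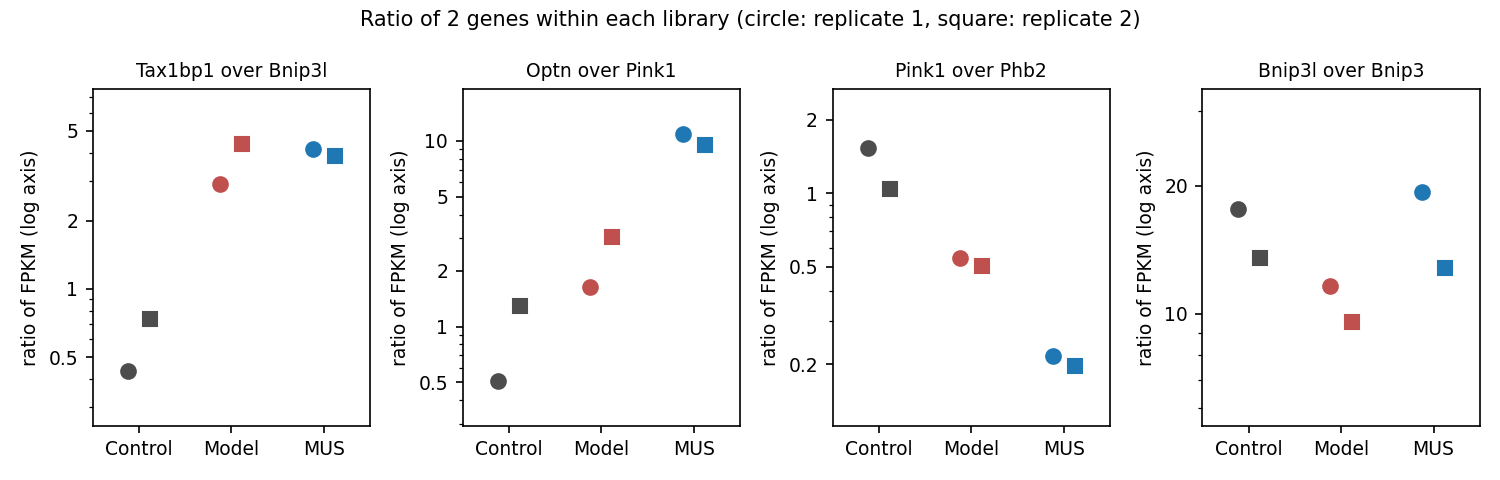
Ratio of the FPKM of 2 genes within each library, on log axes; circles are replicate 1 and squares replicate 2. Optn over Pink1 is 0.511 and 1.30 in Control and 10.9 and 9.48 in MUS, and Pink1 over Phb2 has the reverse order of groups, whereas Bnip3l over Bnip3 overlaps between Control and MUS.

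Of the summed FPKM of Sqstm1, Tax1bp1 and Optn, the 3 ubiquitin-binding adaptors not listed at 0, Sqstm1 made up 80.5% and 87.3% in Control, 80.3% and 72.3% in Model, with 60.8% and 69.5% in MUS. The share of Tax1bp1 was 15.2% and 8.92% in Control, 16.4% and 22.4% in Model, with 31.6% and 24.4% in MUS, and both MUS libraries were above the other 4. Optn made up 4.34% and 3.82% in Control, 3.27% and 5.23% in Model, with 7.58% and 6.14% in MUS. The size of these shares also depends on the gene lengths used for FPKM.

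The genes most like Pink1 were sought by the Euclidean distance between log2(FPKM + 1) values, centred per gene, over the 6 libraries, which share the 3 groups. The nearest of 9793 other genes was Atpif1, which encodes the inhibitory factor of ATP synthase, at a distance of 0.340. Its FPKM was 11.5 and 5.46 in Control, 3.29 and 1.97 in Model, with 0.826 and 0.897 in MUS. Fxyd5 (0.442), Slc8b1 (0.506), Dok2 (0.509) and Ap5s1 (0.519) followed, each with both Control libraries highest and both MUS libraries lowest, an order that follows from the search itself. Many genes shared this profile, as 191 of the 9793 had a correlation with Pink1 over 0.95 across the 6 libraries. Among the mitophagy genes, Bnip3 ranked 596 and Bnip3l ranked 622 by this distance.

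Other genes of the pathway were counted in lists by role. Of 49 genes, 44 could be tested. In Model vs. Control 3 rose and 3 fell, in MUS vs. Model none passed the test (3 had an unadjusted limma p under 0.05, and voom called 0), and in MUS vs. Control 3 rose and 3 fell. These 6 of 44 in each comparison with Control stand beside 15.1% of all genes called in Model vs. Control and 20.2% in MUS vs. Control. The median log2 fold changes over the 44 genes were 0.09, 0.04 and 0.21, beside 0.04, 0.01 and 0.04 for all genes tested. In MUS vs. Control this depended on the scaling. The median of the 44 was -0.13 against -0.06 for all genes with quantile normalization, and -0.32 against -0.40 when rescaled. Without Model replicate 1, 1, 0 and 6 of these genes were called.

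None of the 11 genes of PINK1 import and turnover passed the test in any comparison. They include subunits of the TOM complex, through which PINK1 enters, and the protease PARL, which cleaves it. Of all genes tested, 15.1% passed in Model vs. Control, 0% in MUS vs. Model and 20.2% in MUS vs. Control. In MUS vs. Control the median log2 fold change of the 11 was 0.57, against 0.04 for all genes. The median of all genes was itself 0.25 with a filter at a mean of 5 FPKM and -0.40 when rescaled. In this comparison, 5 of the 11 had an unadjusted limma p under 0.05, beside 3884 of 9794 genes. In MUS vs. Model the lowest was Timm23 of the inner membrane translocase (log2 fold change -0.89, unadjusted p = 0.0252 in limma, adjusted p = 0.496), 57.5% of whose 50-base stretches occur in other genes. The highest was the inner membrane protease gene Afg3l2, with 12.2 and 14.6 FPKM in Control, 19.2 and 17.1 in Model, with 28.4 and 26.8 in MUS (0.58 in MUS vs. Model, limma adjusted p = 0.587). In MUS vs. Control its log2 fold change of 0.99 missed the fold threshold (limma adjusted p = 0.0268), as did that of another gene of this list (0.90, limma adjusted p = 0.0246).

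Of the 12 genes that write, erase or extract ubiquitin, 10 could be tested and 1 passed, in both comparisons with Control. Marchf5, the gene of the outer membrane ubiquitin ligase MARCH5, held 20.4 and 22.3 FPKM in Control, 154 and 123 in Model, with 219 and 162 in MUS. Every stimulated library was far above both Control libraries. In Model vs. Control, Marchf5 rose by 2.63 on the log2 scale (limma adjusted p = 0.0038), and it rose by 3.09 in MUS vs. Control (limma adjusted p = 0.0021), and both calls held under all 19 alternatives. Other genes share 8.84% of its 50-base stretches. The ligase gene Mul1 had the lowest log2 fold change of this list in MUS vs. Model (-0.89, unadjusted p = 0.0116 in limma, adjusted p = 0.463), and the deubiquitinase gene Usp15 the highest (0.51, limma adjusted p = 0.620). In MUS vs. Control, Usp15 was higher by 0.96 and missed only the fold threshold (limma adjusted p = 0.0250).

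Of the 7 outer membrane substrates of the pathway, 6 could be tested and 1 passed. Vdac3, a voltage-dependent anion channel gene, held 10.7 and 16.0 FPKM in Control, 40.4 and 26.1 in Model, with 34.6 and 28.8 in MUS. Of its 50-base stretches, 12.8% also occur in other genes, mostly in Vdac3-ps1 (11.8%). In Model vs. Control, Vdac3 rose by 1.25 (limma adjusted p = 0.0416), and it rose by 1.21 in MUS vs. Control (limma adjusted p = 0.0377). The calls were lost in 12 and 10 of 19 alternatives, among them 4 scalings in each (0.65 and 0.69 when rescaled to genes outside the mitochondrial genome and the 20 highest). Leaving out Control replicate 1 (0.98 and 0.94) or either MUS replicate ended both calls, and leaving out Model replicate 1 (0.95) ended that in Model vs. Control.

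Of the 14 receptor partners and other receptors, 12 could be tested. Tbk1, the kinase gene of optineurin's activation, held 19.5 and 34.8 FPKM in Control, 66.9 and 65.8 in Model, with 94.0 and 74.6 in MUS. Tbk1 rose by 1.31 in Model vs. Control (limma adjusted p = 0.0437; 0.0532 with the replicate block) and by 1.65 in MUS vs. Control (limma adjusted p = 0.0174), and these calls were lost in 13 and 5 of 19 alternatives. The first was lost under quantile normalization (0.72), rescaling (0.70) and without any single library other than Control replicate 2, and the second without Control replicate 1 (1.24), MUS replicate 1 (1.48) or MUS replicate 2 (1.81). Nbr1, a ubiquitin-binding receptor related to p62, fell by 1.40 in Model vs. Control (limma adjusted p = 0.0376), from 10.8 and 6.07 FPKM to 1.64 and 3.53, and held 3.70 and 4.96 in MUS, 0.61 above Model (limma adjusted p = 0.717). Ulk1, the kinase gene that starts autophagosome formation, fell by 1.07 against Control in Model (limma adjusted p = 0.0174), and it fell by 1.18 in MUS vs. Control (limma adjusted p = 0.0100). The Nbr1 call was lost in 7 of 19 alternatives, among them those without Control replicate 1 (-1.03), Model replicate 1 (-1.01) or either MUS replicate. The Ulk1 calls were lost in 8 and 6 of 18, with a GC correction (-0.75 and -0.53) and without Control replicate 1 (-0.99 and -1.10) or either MUS replicate, and the first also without Model replicate 1 (-0.95).

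The LC3 and GABARAP proteins, which the receptors bind, are encoded by 5 genes here, all tested. Gabarapl1 held 56.3 and 46.3 FPKM in Control, 24.1 and 22.8 in Model, with 15.9 and 20.98 in MUS. Gabarapl1 fell by 1.09 in Model vs. Control (limma adjusted p = 0.0354; 0.0513 with the replicate block) and fell by 1.43 in MUS vs. Control (limma adjusted p = 0.0120). Map1lc3a, the gene of LC3A, held 9.92 and 3.66 FPKM in Control, 3.42 and 1.09 in Model, with 0.392 and 1.199 in MUS, so that Model and MUS overlapped. These values rested on 268 and 99, 57 and 20, and 7 and 23 fragments. Map1lc3a fell by 2.03 in MUS vs. Control (limma adjusted p = 0.0295). In MUS vs. Model all 5 genes had a negative log2 fold change, with a median of -0.44, and none passed (smallest limma adjusted p = 0.734). The Gabarapl1 calls were lost in 10 and 3 of 19 alternatives, and the Map1lc3a call in 6 of 18. The Gabarapl1 call in Model vs. Control was kept without Control replicate 2 and lost without any other single library, and that in MUS vs. Control was lost without MUS replicate 1 (-1.24) or MUS replicate 2 (-1.62). The Map1lc3a call was lost with a GC correction (-1.08) and without Control replicate 1 (-1.41), MUS replicate 1 (-1.70) or MUS replicate 2 (-2.36).

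**Figure D4:**
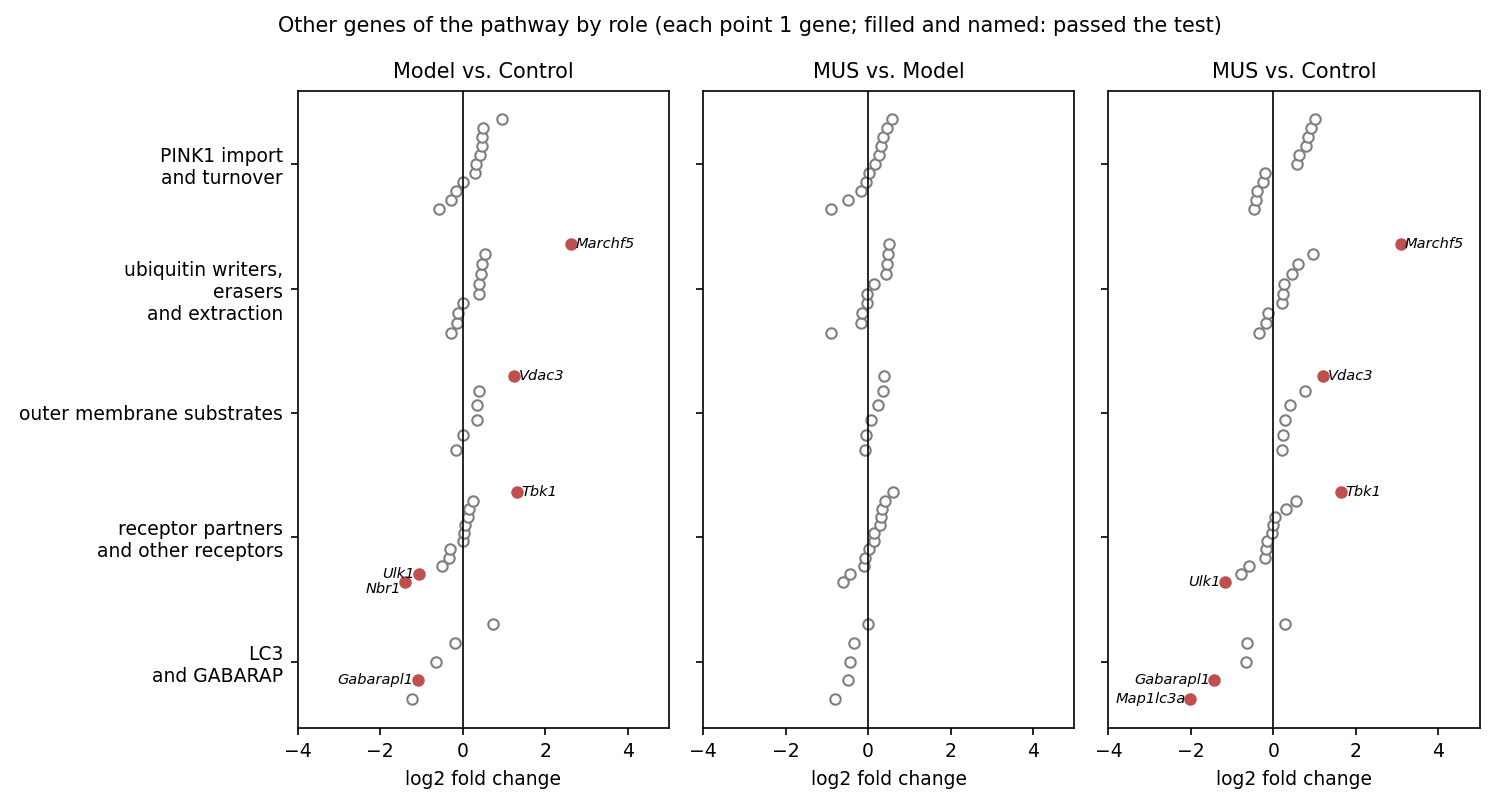
Log2 fold change of the 44 other tested genes of the pathway in the 3 comparisons, grouped by role; each point is 1 gene, and filled, named points passed the test. Marchf5 stands farthest right in Model vs. Control (2.63) and MUS vs. Control (3.09), and no point is filled in MUS vs. Model.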

How the data were processed

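RNA-seq was performed on poly-A RNA of 6 mouse peritoneal macrophage libraries. The FPKM of all 6 were deposited by the authors in a single table, in which 0 columns of values had no sample. The paper's methods name RSEM for quantification and DESeq2 for the test, while the submitters' processing notes name HISAT2, featureCounts 1.5.0-p3 and GRCm39. Gene positions in the table were those of GRCm38, as in GENCODE M21, for 98.3% of 54409 shared identifiers and for all 9 mitophagy genes. FPKM times gene length was a whole multiple of 1 step for 100% of values in each library (tolerance 0.1 of a step), which gave the fragments per gene. Intervals and limits of 3 fragments cover counting error only.

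Groups and batches came from the labels. Values were analysed with limma 3.58.1 in R 4.3.3 (a mean-variance trend in eBayes, two-sided tests, Benjamini-Hochberg adjustment over the genes tested), on log2(FPKM + 1), with a pseudocount of 1 and a mean FPKM of at least 1, all 6 libraries in one model of 3 groups, 3 residual and 4.04 prior degrees of freedom. DESeq2 was not run; the recovered fragments were fitted with voom in an alternative. The fit was tested on simulated data. Tables and figures used Python 3.11.15, pandas 2.3.3, SciPy 1.17.1 and Matplotlib 3.10.9.

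Alternatives changed the pseudocount (0.1), the filter (none, or a mean of 5 FPKM), the scaling (5 others, one with voom on fragments), the libraries fitted, the trend, the GC content and the replicate block. The replicate number is the batch in the labels, which pairs libraries across groups; differences between replicates correlated across genes with r = 0.12 (Control, Model), 0.14 (Model, MUS) and -0.09 (Control, MUS). The 9 genes and the lists were chosen with earlier results of these data known. Genes named were the 9, the pathway genes called in a comparison or otherwise among its 3 highest and 3 lowest, and the 5 nearest to Pink1. RefSeq promoters (GRCm38.p6) gave the sequences. No protein sequence was used here. One gene of the lists is not reported here.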

Additional observations from a re-analysis of the deposited data

How the results depend on the processing

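Leaving out 1 library leaves a group with a lone sample that is assumed to vary like the others. In Model vs. Control, the number of mitophagy genes called (2) became 0 without a filter or with only the 2 groups fitted, 1 without the trend, with a GC correction or with GC correction and replicate block, and 0 to 3 without 1 library; in MUS vs. Control (4) it became 1 without a filter and 0 to 4 without 1 library; in MUS vs. Model it was 0 throughout. The replicate block alone left these counts at 2, 0 and 4. Of the other pathway genes, 6 in Model vs. Control became 1 (no filter, 2 groups, GC with block), 3 (GC) or 1 to 7 (1 library out), and 6 in MUS vs. Control became 1 (no filter), 11 (voom), 3 (GC, with or without block) or 1 to 7 (1 library out). The replicate block took the calls of Tbk1 and Gabarapl1 in Model vs. Control.

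Over all genes, 1475 calls in Model vs. Control (930 higher, 545 lower) became 260 without a filter, 2361 when rescaled (585 higher, 1776 lower), 2734 with voom (684 higher, 2050 lower), 797 with 2 groups and 692 to 2077 without 1 library, and quantile normalization gave 707 higher and 715 lower, fragment totals 646 and 1554. In MUS vs. Control, 1980 (1107 higher, 873 lower) became 456 without a filter, 3144 with voom (758 higher, 2386 lower) and 184 to 2398 without 1 library, and the split was 885 to 1102 with quantile normalization, 721 to 1964 rescaled and 738 to 1953 with fragment totals. In MUS vs. Model, 0 became 1 with a pseudocount of 0.1, 7 with 2 groups, 4 with the replicate block and 0 to 31 without 1 library.

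The median of all genes in Model vs. Control shifted to -0.46 when rescaled, -0.40 with fragment totals and -0.50 with voom. The sign of uncalled genes turned as follows in Model vs. Control: Sqstm1 to -0.997 (quantile), -0.60 (rescaled), -0.031 (median ratio), -0.51 (fragment totals), -0.51 (voom) and -0.38 to 0.45 without 1 library; Optn to -0.017 (quantile), -0.41 (rescaled), -0.33 (fragment totals), -0.36 (voom) and -0.066 to 0.42; Fundc1 to -0.055, -0.38, -0.30 and -0.32 by the same 4 scalings and -0.041 (GC, with or without block); Phb2 to -0.20 (quantile), -0.58 (rescaled), -0.053 (median ratio), -0.50 (fragment totals), -0.54 (voom) and -0.16 to 0.17. In MUS vs. Control it turned for Fundc1 (quantile -0.19, rescaled -0.49, median ratio -0.028, fragment totals -0.48, voom -0.51, GC with or without block -0.38, without 1 library -0.10 to 0.15), Phb2 (0.084 with GC, with or without block) and Sqstm1 (-0.75 to 0.073 without 1 library). Causes were not tested. Depth limits most the values that rest on few fragments, among them Map1lc3a in MUS (7 and 23 fragments), Bnip3 and Pink1 in MUS.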
